A study of Mus musculus with 6 samples.

Results

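Sterol and fatty acid synthesis genes driven by the sterol regulatory element-binding proteins (SREBPs) were followed in cultured mouse macrophages with and without a Gps2 knockout. The set was a list of 35 genes: 20 of the sterol branch, which SREBP2 mainly drives, 10 of the fatty acid branch, which SREBP1 mainly drives, and 5 regulators. Of these, 34 were found among the 18820 genes tested, each through the probe set with the highest mean over all arrays, and Acat2 was not analysed here. GPS2KO macrophages (3 arrays) were grown from the marrow of mice that the labels call a macrophage GPS2 knockout, and they were set against macrophages of wild-type mice (WT, 3 arrays). All samples were from male mice of about 12 to 16 weeks, differentiated for 7 days in 30% L929-conditioned medium, which supplies macrophage growth factor, and left without treatment. The labels name no Cre driver, no deleted exon, no strain and no number of mice, so the p-values speak only of the scatter among these 6 samples, part or all of which may be technical. Values are log2 signals of Affymetrix arrays, where a difference of 1 is a 2-fold change, and their precision is limited by the 6 arrays.

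SREBPs are transcription factors made as precursors in the membrane of the endoplasmic reticulum. When sterols run low, the escort protein SCAP carries the SREBPs to the Golgi, where proteases free the part that enters the nucleus. When sterols are plentiful, INSIG proteins hold SCAP in the endoplasmic reticulum, and the enzymes of the pathway are made less. GPS2 is known as a partner of the co-repressors NCoR and SMRT, which silence genes together with the deacetylase HDAC3. In macrophages these genes supply membrane cholesterol and fatty acids, and sterol intermediates feed the liver X receptor (LXR), which in turn raises Srebf1.

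Gps2 had log2 signals of 10.29, 10.16 and 10.19 on the GPS2KO arrays, against 10.94, 10.93 and 11.00 on the WT arrays, so the GPS2KO signal was 59.7% of WT (adjusted p = 0.000256, limma). Array pairs of one group correlated at 0.9989 to 0.9991, and pairs across groups at 0.9977 to 0.9981. Of all tested genes, 6.72% passed an adjusted p of 0.05, with 545 higher and 720 lower in GPS2KO. Those splits moved to 460 and 1061 after each array was centred on its median over all probe sets, and to 659 and 568 with the median over tested genes. Of 8 macrophage markers, 3 rose (Mrc1, Mertk and Itgam) and 0 fell, and their mean log2 signal was 12.17 on the GPS2KO arrays and 12.00 to 12.05 on the WT arrays. All 4 measured adipocyte markers and all 4 measured B and T cell markers lay under 5.49, the level below which a gene is called dim here (the 40th percentile of tested genes). Fibroblast markers were present, apart from Lum, which was dim. Col1a1 fell by 0.20, Dcn rose by 0.30 and 4 others did not pass. The list's mean was 8.54 to 8.63 in GPS2KO and 8.47 to 8.60 in WT. Among 8 neutrophil markers Ngp alone rose, by 0.46, and 6 were dim. Of 6 dendritic cell genes 4 were dim, 0 passed in limma and 0 had an unadjusted p under 0.05. Of 7 cell cycle genes 0 passed and 1 had such an unadjusted p. Over all tested genes, 20.8% had one. The calls of Itgam (adjusted p 0.0557 to 0.1 without 1 array), Ngp (up to 0.0617), Col1a1 (up to 0.0796) and Dcn (up to 0.115) each ended when single arrays were left out: any of the 6 for Itgam, any but WT replicate 1 for Col1a1, and 4 of the 6 for Ngp and Dcn. The part of other cells in the results was not tested, and in bulk RNA more cells of a type and more RNA per cell cannot be told apart.

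In GPS2KO macrophages, 10 of the 34 measured genes (29.4%) rose and 0 fell in limma, where 2.9% of all tested genes rose and 3.83% fell. At an unadjusted p under 0.05, 15 were higher and 2 lower, where 8.88% of all tested genes were higher and 11.9% lower. The mean was higher in GPS2KO for 21 of the 34 genes, and for 46.4% of all tested genes. The rises were modest, from 1.15-fold to 1.48-fold, and were led by Hmgcs1, Insig1 and Cyp51. In the sterol branch 8 of 19 genes rose, with a median change of 0.19, while in the fatty acid branch 1 of 10 rose, with a median of -0.01, and among the regulators 1 of 5 rose, with a median of -0.05. The median change of all tested genes was -0.01. The difference between the branches was not tested. The 10 genes that rose lie on 9 chromosomes. None of the 34 genes was dim, while the shares of all tested genes include dim ones. With dim genes left out, 13 members rose and 0 fell. Of all genes kept in that fit, 808 rose and 1154 fell, and 17.4% passed in either direction. With all genes kept, the sterol genes that rose were 1 of 6 at the mevalonate and isoprenoid steps and 2 of 3 around squalene and lanosterol. They were 4 of 8 after lanosterol, and 1 of 2 that transfer or bind sterols. These groups are small and were made after the values were seen, and the difference between steps was not tested.

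**Figure D1:**
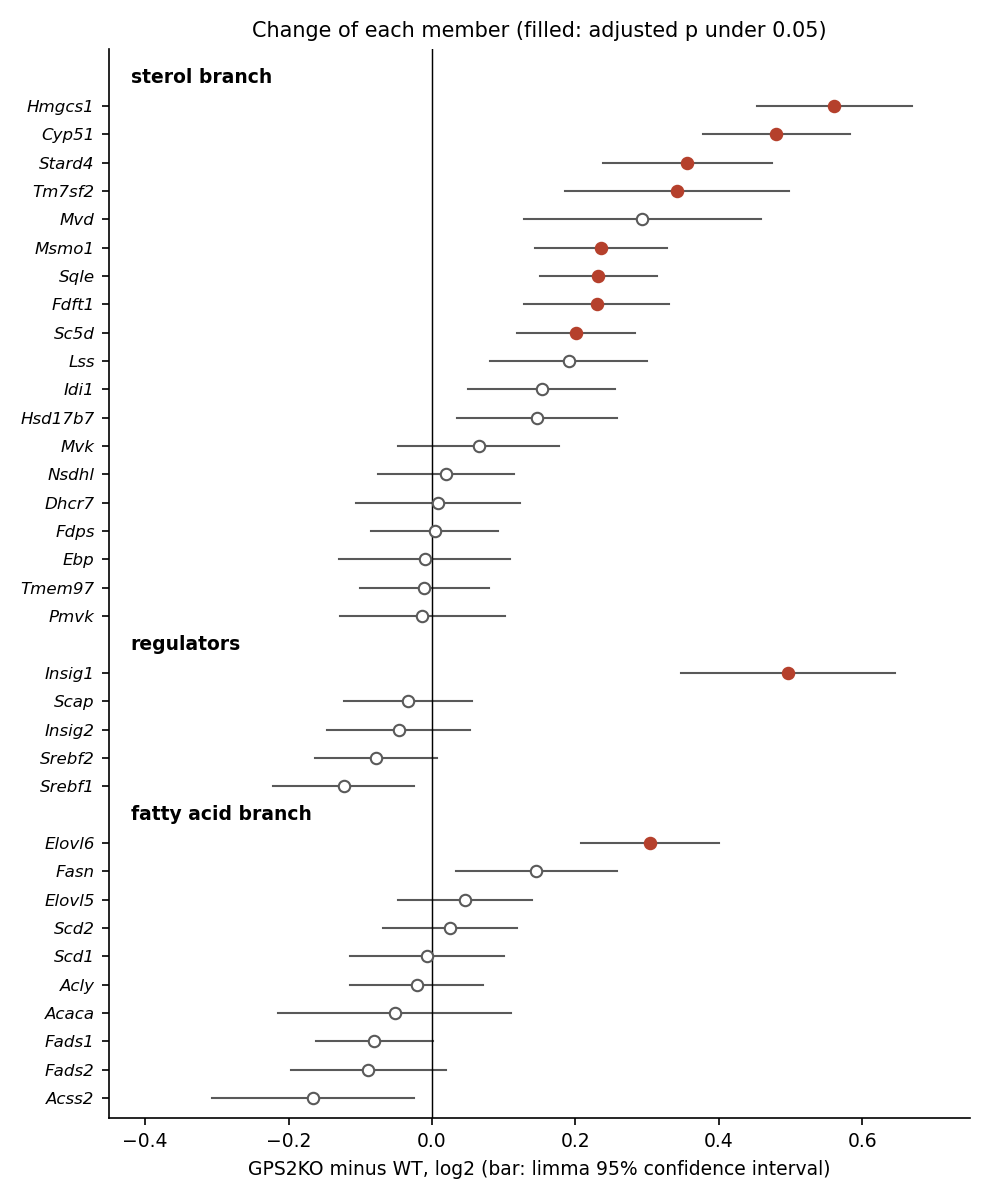
Change of each of the 34 measured genes: log2 GPS2KO minus WT, with the 95% confidence interval from limma as a bar and filled points for an adjusted p under 0.05. The 8 filled sterol genes lie between 0.20 and 0.56, Insig1 is the only filled regulator and Elovl6 the only filled gene of the fatty acid branch.

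The start regions of these genes show what the members share in sequence. RefSeq promoter windows of build GRCm38.p6, from 250 bases before to 50 after the gene start, were used for 28 of the 35 genes. No window of Sqle, Fdft1 or Stard4, which rose, was among them, so the counts for genes that rose leave these out. Both strands of each window were searched for TCACNCCA (core of the sterol regulatory element that SREBPs bind), CCAAT (the NF-Y box), GGGCGG (a GC box) and CACGTG (an E-box). The sterol element core was in 3 of 28 genes (10.7%), against 4.66% of 17492 protein-coding genes, and the 3 were Hmgcs1, Msmo1 and Srebf2. CCAAT was in 23 of 28 (82.1%), against 42.3% of protein-coding genes, and in 15 of 16 genes of the sterol branch but 4 of 7 of the fatty acid branch. The GC box was also in 23 of 28 (82.1%), against 49.2%, and the E-box in 6 of 28 (21.4%), against 8.91%. Among genes that rose, 2 of 7 held the core and 6 of 7 held CCAAT, and among genes that did not pass 1 of 20 and 17 of 20 did, Acat2 being in neither group. A gene with several windows counts once if any holds the motif, and a match is a run of letters in a window and no record of binding. Only exact matches inside the window were sought, so a window without one is not shown to lack a sterol regulatory element.

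Below are the 3 windows with the core and, beside them, those of Insig1, Cyp51 and Elovl6, which rose and held no exact match to it. Capitals mark TCACNCCA and CCAAT on either strand. They lie at chr13:119690101-119690400 (plus strand) for Hmgcs1, chr8:64733529-64733828 (minus strand) for Msmo1, chr15:82147019-82147318 (plus strand) for Srebf2, chr5:28071162-28071461 (plus strand) for Insig1, chr5:4104648-4104947 (minus strand) for Cyp51 and chr3:129532136-129532435 (plus strand) for Elovl6, all 5′ to 3′ on the gene's strand. The core starts 137 bases before the start of Hmgcs1, 177 before that of Msmo1 and 162 before that of Srebf2.
Hmgcs1: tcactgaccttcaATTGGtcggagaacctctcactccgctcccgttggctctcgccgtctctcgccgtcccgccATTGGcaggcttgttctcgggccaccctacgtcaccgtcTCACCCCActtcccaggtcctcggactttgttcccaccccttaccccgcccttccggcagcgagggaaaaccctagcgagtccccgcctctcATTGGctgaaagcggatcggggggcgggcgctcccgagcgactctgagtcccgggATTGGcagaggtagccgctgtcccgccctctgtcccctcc
Msmo1: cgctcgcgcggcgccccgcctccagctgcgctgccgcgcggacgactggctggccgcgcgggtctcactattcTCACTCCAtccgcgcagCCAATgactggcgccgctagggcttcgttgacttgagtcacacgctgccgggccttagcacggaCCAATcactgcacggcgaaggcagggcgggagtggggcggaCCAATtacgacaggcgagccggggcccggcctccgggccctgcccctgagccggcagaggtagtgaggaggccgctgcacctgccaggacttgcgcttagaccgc
Srebf2: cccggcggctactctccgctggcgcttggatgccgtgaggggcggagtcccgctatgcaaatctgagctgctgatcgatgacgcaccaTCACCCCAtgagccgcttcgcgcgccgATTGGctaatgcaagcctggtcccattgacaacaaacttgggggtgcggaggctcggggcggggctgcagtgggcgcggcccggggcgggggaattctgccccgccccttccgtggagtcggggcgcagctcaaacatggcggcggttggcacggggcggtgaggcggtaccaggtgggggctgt
Insig1: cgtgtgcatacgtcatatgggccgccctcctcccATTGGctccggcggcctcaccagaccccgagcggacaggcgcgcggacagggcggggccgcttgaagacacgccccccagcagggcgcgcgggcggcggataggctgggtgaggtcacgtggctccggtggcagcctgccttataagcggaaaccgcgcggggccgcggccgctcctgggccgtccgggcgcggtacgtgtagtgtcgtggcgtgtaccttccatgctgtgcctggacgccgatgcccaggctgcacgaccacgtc
Cyp51: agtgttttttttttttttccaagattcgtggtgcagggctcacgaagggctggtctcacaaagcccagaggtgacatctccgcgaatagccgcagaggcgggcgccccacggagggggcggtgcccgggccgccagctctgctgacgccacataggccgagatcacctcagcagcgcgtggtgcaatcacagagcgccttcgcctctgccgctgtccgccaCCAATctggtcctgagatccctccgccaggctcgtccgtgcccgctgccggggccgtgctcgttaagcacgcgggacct
Elovl6: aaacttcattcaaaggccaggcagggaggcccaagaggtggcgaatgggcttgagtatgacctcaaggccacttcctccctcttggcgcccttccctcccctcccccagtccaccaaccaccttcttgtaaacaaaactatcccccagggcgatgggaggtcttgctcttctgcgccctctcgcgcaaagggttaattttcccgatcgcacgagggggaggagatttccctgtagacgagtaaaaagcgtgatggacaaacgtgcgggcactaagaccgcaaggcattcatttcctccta
The Hmgcs1 window held 4 CCAAT matches beside the core and the Msmo1 window held 3. The Insig1 and Cyp51 windows each held 1 CCAAT and no core, and Insig1 had an E-box 101 bases before its start. Srebf2, which did not pass, held the core and 1 CCAAT. The Elovl6 window held 0 of the 4 motifs, and in these 6 windows no match overlapped another.

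An early step of sterol synthesis is that of Hmgcs1, whose enzyme joins acetyl-CoA to acetoacetyl-CoA to form HMG-CoA. Hmgcs1 had log2 signals of 10.14, 10.20 and 10.17 on the GPS2KO arrays, against 9.64, 9.53 and 9.66 on the WT arrays. Every GPS2KO array lay above every WT array. Its mean was 10.17 ± 0.03 in GPS2KO and 9.61 ± 0.07 in WT (SD, n = 3 each), and Hmgcs1 rose by 0.56 (SE 0.0465, 1.48-fold, adjusted p = 0.000629), the largest change of the 34 genes. Mvk and Pmvk, the kinases that phosphorylate mevalonate, had overlapping groups and changes of 0.07 and -0.01. Mvd, which turns the product into isopentenyl diphosphate, had 8.47, 8.40 and 8.36 in GPS2KO and 8.03, 8.04 and 8.27 in WT. The highest WT array, replicate 3, stood apart from the other WT arrays, and the difference of 0.29 did not pass (adjusted p = 0.0527), though it did without that array (adjusted p = 0.0119). Idi1, the isomerase of that product, had 11.05, 11.01 and 11.04 in GPS2KO, against 10.94, 10.88 and 10.82 in WT. It was higher on every GPS2KO array, but did not pass at 0.15 (adjusted p = 0.0894), and its second probe set also differed by 0.15. Fdps, which joins isoprenoid units to farnesyl diphosphate, had overlapping groups and a change of 0.00 (95% confidence interval -0.09 to 0.09).

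The next steps commit the pathway to sterols. Fdft1, squalene synthase, had 11.21, 11.23 and 11.24 in GPS2KO, against 10.93, 11.05 and 11.01 in WT. It rose by 0.23 (SE 0.0434, 1.17-fold, adjusted p = 0.0206) with no overlap of the groups, but the call was lost without any single array other than WT replicate 2 (adjusted p 0.0588 to 0.0773). Sqle, the epoxidase that limits the rate of this stretch, had 11.01, 11.03 and 11.03 in GPS2KO and 10.79, 10.78 and 10.80 in WT. Its replicates were tight in both groups, and it rose by 0.23 (SE 0.035, 1.17-fold, adjusted p = 0.00839). Lss, which closes the rings to lanosterol, had 10.10, 10.09 and 10.02 in GPS2KO, against 9.81, 9.93 and 9.90 in WT. The groups did not overlap, yet the difference of 0.19 did not pass (adjusted p = 0.0566).

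After lanosterol, 4 genes rose, 1 was higher without passing and 3 overlapped between groups. Cyp51, which removes the methyl group at the first demethylation, had 10.18, 10.08 and 10.11 in GPS2KO, against 9.61, 9.64 and 9.69 in WT. The gap between the groups was wider than the spread inside either. Its mean was 10.13 ± 0.05 in GPS2KO and 9.65 ± 0.04 in WT (SD, n = 3 each), a rise of 0.48 (SE 0.044, 1.39-fold, adjusted p = 0.000997). Tm7sf2, a sterol reductase that acts next, had 8.53, 8.29 and 8.30 in GPS2KO, against 8.03, 8.04 and 8.02 in WT. GPS2KO replicate 1 was the highest, and Tm7sf2 rose by 0.34 (SE 0.0671, 1.27-fold, adjusted p = 0.0245), but the call ended without any 1 of the WT arrays (adjusted p 0.0698 to 0.0834). Msmo1, which oxidises the methyl groups at the ring, had 11.43, 11.41 and 11.39 in GPS2KO, against 11.13, 11.18 and 11.21 in WT. It rose by 0.24 (SE 0.0395, 1.18-fold, adjusted p = 0.0126), a call that ended without GPS2KO replicate 1 or 2 (adjusted p 0.0511 and 0.0512). Sc5d, a late desaturase, had 10.23, 10.22 and 10.21 in GPS2KO, against 10.03, 10.01 and 10.01 in WT. It rose by 0.20 (SE 0.0354, 1.15-fold, adjusted p = 0.0155), the smallest of the rises, and the call ended without any single array but WT replicate 1 (adjusted p 0.0508 to 0.0597).

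Nsdhl and Hsd17b7 work with Msmo1 in taking off those methyl groups. Nsdhl overlapped between groups (0.02, adjusted p = 0.839), while Hsd17b7 had 10.91, 10.99 and 11.00 in GPS2KO, against 10.76, 10.82 and 10.88 in WT. It was higher on every GPS2KO array but did not pass (0.15, adjusted p = 0.131). Ebp, an isomerase, and Dhcr7, the last reductase to cholesterol, had changes of -0.01 and 0.01, with 95% intervals of -0.13 to 0.11 and -0.11 to 0.12. Those intervals lie below the change of Cyp51. Stard4, which carries cholesterol between membranes, had 9.70, 9.77 and 9.60 in GPS2KO, against 9.35, 9.31 and 9.33 in WT. The groups did not overlap, and it rose by 0.36 (SE 0.0506, 1.28-fold, adjusted p = 0.00637). Tmem97, a sterol-binding membrane protein, had overlapping groups, and its 2 probe sets changed by -0.01 and 0.01.

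**Figure D2:**
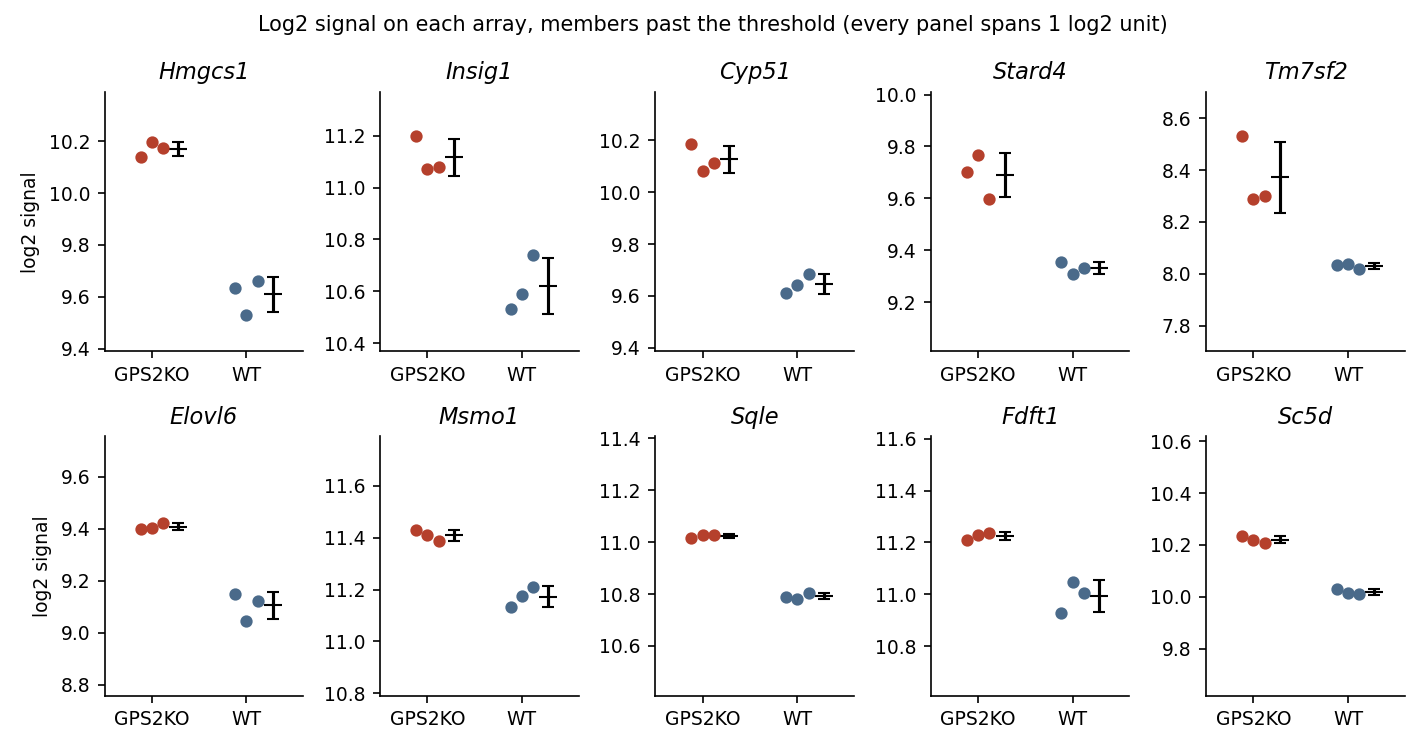
Log2 signal on each array for the 10 genes that passed the threshold, 3 GPS2KO arrays left of 3 WT arrays in each panel, with the mean and SD in black and 1 log2 unit on each axis. In every panel the lowest GPS2KO array lies above the highest WT array, by most for Hmgcs1 and Cyp51.

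Among the regulators, 1 of 5 rose, and it was not an SREBP gene. Srebf2 had 11.60, 11.58 and 11.61 in GPS2KO, against 11.65, 11.69 and 11.68 in WT. Srebf1 had 9.47, 9.36 and 9.43 in GPS2KO, against 9.54, 9.55 and 9.53 in WT. Every GPS2KO array was below every WT array for both genes, but the differences of -0.08 and -0.12 did not pass (adjusted p = 0.282 and 0.144). Scap, the escort protein's gene, had overlapping groups (-0.03, adjusted p = 0.682). Insig1, a target as well as a brake of SREBPs, had 11.20, 11.07 and 11.08 in GPS2KO, against 10.53, 10.59 and 10.74 in WT, with no overlap. Its mean was 11.12 ± 0.07 in GPS2KO and 10.62 ± 0.11 in WT (SD, n = 3 each), and it rose by 0.50 (SE 0.064, 1.41-fold, adjusted p = 0.00416). Its relative Insig2, which responds less to SREBPs, had 9.55, 9.53 and 9.51 in GPS2KO and 9.63, 9.58 and 9.52 in WT, with overlapping groups (-0.05, 95% interval -0.15 to 0.05).

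Related members, and Hmgcs1 with Fasn across the branches, were compared in pairs within arrays. The test was an exact 2-sided permutation test over the 6 arrays, in which 3 against 3 cannot give a p under 0.1. Insig1 changed by 0.54 more than Insig2, Elovl6 by 0.26 more than Elovl5 and Hmgcs1 by 0.42 more than Fasn. For these 3 pairs the within-array differences did not overlap between groups (exact permutation p = 0.1, adjusted over the 6 pairs 0.2). In each of the 3 the first gene passed in limma and the second did not. The pairs were drawn from members chosen with earlier results of these data known, so they restate those calls and add no separate support. Srebf2 against Srebf1 (0.05, exact p = 0.3), Scd2 against Scd1 (0.03, exact p = 0.9) and Fads1 against Fads2 (0.01, exact p = 0.9) overlapped.

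**Figure D3:**
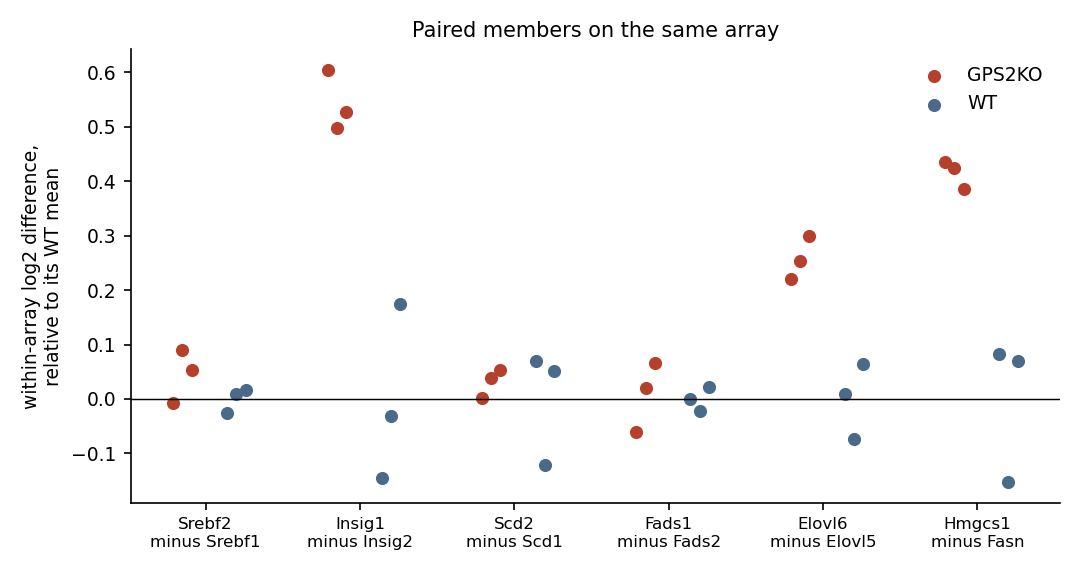
Within-array log2 difference between the 2 members of each pair, drawn relative to its WT mean, with 3 GPS2KO arrays left of 3 WT arrays for each pair. The groups stand apart for Insig1 minus Insig2, Elovl6 minus Elovl5 and Hmgcs1 minus Fasn, and overlap for the other pairs.

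In the fatty acid branch, Elovl6, which lengthens palmitate to stearate, was the one gene to pass. It had 9.40, 9.40 and 9.42 on the GPS2KO arrays, against 9.15, 9.05 and 9.12 on the WT arrays, with no overlap. It averaged 9.41 ± 0.01 in GPS2KO and 9.11 ± 0.05 in WT (SD, n = 3 each), and rose by 0.30 (SE 0.0415, 1.23-fold, adjusted p = 0.00544). Elovl5, which lengthens polyunsaturated fatty acids, had overlapping groups (0.05, adjusted p = 0.58). Acly and Acss2 make cytosolic acetyl-CoA from citrate and acetate. Acly overlapped between groups (-0.02). Acss2 had 6.99, 6.93 and 6.96 in GPS2KO, against 7.24, 7.13 and 7.01 in WT. It was lower on every GPS2KO array, but that difference of -0.17, the most negative of the 34 genes, did not pass (adjusted p = 0.17). Acaca, the carboxylase that makes malonyl-CoA, had overlapping groups, and its 2 probe sets each changed by -0.05. Fasn, the synthase that builds palmitate, had 10.83, 10.89 and 10.91 in GPS2KO and 10.67, 10.80 and 10.71 in WT. It was higher on every GPS2KO array, but the difference of 0.15 did not pass (adjusted p = 0.133).

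Of the 4 desaturase genes 0 passed in limma, and 0 had an unadjusted p under 0.05, against 20.8% of all tested genes. Scd1 had 10.02, 10.03 and 9.97 in GPS2KO, against 9.98, 10.09 and 9.97 in WT, and Scd2 had 11.86, 11.91 and 11.86 in GPS2KO, against 11.88, 11.81 and 11.86 in WT. These genes place the first double bond in stearate and palmitate, and their changes of -0.01 and 0.02 had 95% intervals of -0.11 to 0.10 and -0.07 to 0.12. Scd1 and Scd2 are close paralogs, and how far their probes tell them apart was not tested. Fads1, which desaturates polyunsaturated fatty acids, had 11.99, 11.99 and 11.98 in GPS2KO, against 12.07, 12.06 and 12.06 in WT. The groups did not overlap, yet the difference of -0.08 did not pass (adjusted p = 0.247), and Fads2, which acts before it, had 11.67, 11.59 and 11.53 in GPS2KO and 11.70, 11.70 and 11.66 in WT, overlapping at 1 array (-0.09, adjusted p = 0.341). Over the 9 genes of the branch that did not pass, the 95% intervals reached from -0.31 to 0.26, that is from 80.9% of WT to 1.20-fold higher.

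By array, the median shift of the 19 sterol genes from their WT means was 0.21, 0.20 and 0.18 on the GPS2KO arrays, against 0.00, 0.00 and 0.02 on the WT arrays. The 10 fatty acid genes had 0.01, 0.02 and -0.05 in GPS2KO, against 0.01, 0.01 and -0.01 in WT. The 5 regulators had -0.04, -0.04 and -0.06 in GPS2KO, against -0.02, 0.00 and 0.01 in WT. By this median, each GPS2KO array lay above each WT array for the sterol genes and below each for the regulators. The median of 5 regulators does not reflect the size of the Insig1 rise. Their mean log2 signal went the other way, at 10.306 to 10.357 on the GPS2KO arrays and 10.266 to 10.305 on the WT arrays. The fatty acid genes overlapped between groups. WT values lie near 0 because each gene's WT mean is taken off. The sterol genes above their WT mean numbered 17, 16 and 14 of 19 on the GPS2KO arrays, against 7, 8 and 13 of 19 on the WT arrays, so by this count GPS2KO replicate 3 and WT replicate 3 lay 1 gene apart. The groups did not overlap for 15 of the 34 genes with GPS2KO higher and for 4 with GPS2KO lower. Over all tested genes that held for 27.1%, with 11.9% higher and 15.2% lower.

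**Figure D4:**
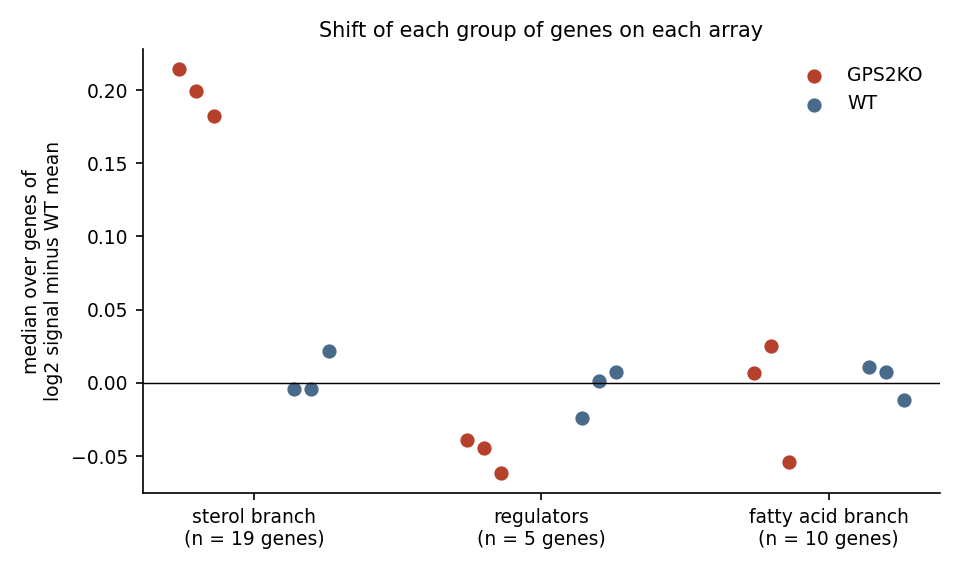
Median over genes of the log2 signal minus each gene's WT mean, for each array, in the sterol branch, the regulators and the fatty acid branch, GPS2KO left of WT. The GPS2KO arrays lie at 0.18 to 0.21 in the sterol branch, above the WT arrays, and on both sides of 0 in the fatty acid branch. For the regulators they lie at -0.06 to -0.04, below the WT arrays.

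Other genes of sterol and lipid metabolism were read from a further list of 79, of which 67 were tested and 12 were not analysed here. Of these 4 rose and 3 fell (5.97% and 4.48%, against 2.9% and 3.83% of all tested genes), and the median change was -0.01. Lpin1, a phosphatidate phosphatase of lipid synthesis, had 8.20, 8.24 and 8.20 in GPS2KO, against 7.73, 7.58 and 7.62 in WT, a rise of 0.57 (1.49-fold, adjusted p = 0.000692). Mid1ip1, which activates acetyl-CoA carboxylase, had 10.67, 10.62 and 10.56 in GPS2KO, against 10.09, 10.08 and 10.05 in WT, a rise of 0.54 (1.45-fold, adjusted p = 0.000479). Aacs, which feeds ketone bodies into lipid synthesis, rose by 0.28 (adjusted p = 0.00556). Lpin1, Mid1ip1 and Aacs were the 3 genes of 29 in fatty acid and lipid synthesis to pass, and each was higher on every GPS2KO array. Erlin2, which takes part in the turnover of sterol-regulated proteins, rose by 0.15 (adjusted p = 0.0497). Leaving out any one of the 6 arrays ended that call, with an adjusted p of 0.0909 to 0.145.

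Of 7 further genes of the sterol and isoprenoid pathway and 12 of sterol uptake, storage and transfer, 0 passed in limma, while 1 of 7 and 2 of 12 had an unadjusted p under 0.05, against 20.8% of all tested genes. Nus1, of dolichol synthesis, and Lrp8, a lipoprotein receptor, came nearest, at 0.16 and 0.19 (adjusted p = 0.0503 and 0.0505). Me1, which supplies NADPH, and Mbtps1, the protease that makes the first cut in SREBPs, differed by -0.17 and -0.12 (adjusted p = 0.075 and 0.102). Of 7 genes of LXR and sterol efflux, 3 fell and 0 rose, against 3.83% and 2.9% of all tested genes. At an unadjusted p under 0.05, 1 was higher and 3 lower, against 8.88% and 11.9% of all tested genes. The 4 that did not pass (adjusted p 0.223 to 0.417 in limma) went both ways. Apoe, Abca1 and Abcg1 had higher means in GPS2KO (0.09, 0.15 and 0.14), and Cyp27a1 a lower one (-0.08). All but Apoe had overlapping groups. Ch25h, which hydroxylates cholesterol to an oxysterol that inhibits SREBP processing, had 10.73, 10.64 and 10.73 in GPS2KO, against 11.40, 11.33 and 11.32 in WT. All GPS2KO arrays were lower, and it fell by 0.65 (adjusted p = 0.000323). A fall of 0.40 was seen for Nr1h3 (adjusted p = 0.00299), the gene of LXR alpha. Lpcat3, a phospholipid acyltransferase, fell by 0.21 (adjusted p = 0.0275), and only leaving out WT replicate 3 kept that call, the other omissions giving an adjusted p of 0.0756 to 0.101.

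**Figure D5:**
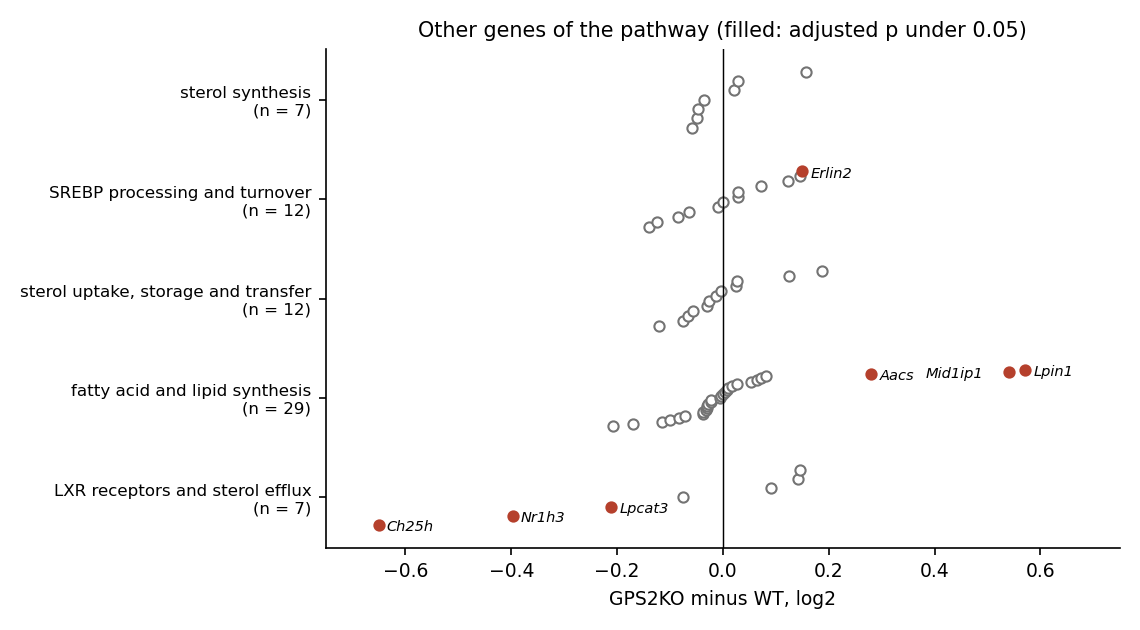
Change of the 67 further genes of the pathway: log2 GPS2KO minus WT by group, with filled and named points for an adjusted p under 0.05. Lpin1 lies at 0.57, Mid1ip1 at 0.54 and Ch25h at -0.65, and the median of the 67 is -0.01.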

How the data were processed

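RNA of 3 GPS2KO and 3 WT macrophage samples was measured on 1 array each. The deposited values are log2 intensities, 1 per probe set and array, which the authors made with RMA in the R package oligo, per the submitters' processing notes. Versions and the array's genome build are not given in the sources used here. RMA quantile-normalizes across arrays, so a change shared by most genes is not seen, and residual background compresses low signals. No detection calls were used here.

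The 35556 probe sets were named by GEO's platform annotation, which may be old: 21218 had 1 symbol, 1881 had several and 12457 were not listed and are unnamed here. For each of 18820 genes the probe set with the highest mean was fitted with limma 3.58.1 in R 4.3.3 (lmFit, eBayes, group as the only term) and p-values were adjusted over all genes by Benjamini-Hochberg at 0.05. No gene was filtered. The fit was tested on simulated data. The 35 members, the gene lists, the marker lists and the motifs were chosen with earlier results of these data known, and the pairs were drawn from those members. The grouping by pathway step was made after the values were seen. All members were named, as were further pathway genes past the threshold and the 4 with the smallest p among the others, and markers where a value stood out. The tested genes of LXR and sterol efflux were also all named.

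Alternatives were quantile normalization, median centring, a variance trend, leaving out dim genes, the mean of a gene's probe sets, adjustment over all probe sets, the replicate block and leaving out each array, and centring over tested genes was added after the data were seen.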

Additional observations from a re-analysis of the deposited data

How the results depend on the processing

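Of the 10 genes that rose, Cyp51, Elovl6, Hmgcs1, Insig1, Sqle and Stard4 kept their call without any 1 array, and 7 or 8 genes rose in each such fit. All 10 kept their call after quantile normalization, either median centring, a variance trend, leaving out dim genes and averaging probe sets, and 8 did when adjusted over all probe sets. Without single arrays 5 to 6 sterol genes rose. Over all genes, 322 to 376 then rose and 419 to 503 fell, against 545 and 720. With a variance trend 926 rose and 1248 fell, over all probe sets 275 and 343, and without dim genes 808 and 1154. With the variance trend, 15 members rose and 1, Fads1, fell (adjusted p = 0.0275); the fatty acid branch then had 2 rises and 1 fall, the added rise being Fasn (adjusted p = 0.0227). Of the other pathway genes, 7 rose and 6 fell with the trend, and 6 fell without dim genes. Lss and Mvd passed after quantile normalization (adjusted p = 0.0489 and 0.0334). Both groups have replicate numbers 1 to 3, but deviations of same-numbered arrays correlated at 0.0035, 0.026 and -0.006, so the numbers were not taken to pair samples. With the replicate block 5 sterol genes rose, since Fdft1, Sc5d and Msmo1 no longer passed (adjusted p = 0.05, 0.0576 and 0.051). The cause was not tested.

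Changes near 0 turned sign. After median centring over all probe sets Fdps was at -0.0202, Dhcr7 at -0.01 and Nsdhl at -0.0043; over tested genes Pmvk was at 0.0103, Ebp at 0.013, Tmem97 at 0.013, Scd1 at 0.0167 and Acly at 0.0025. After quantile normalization Pmvk was at 0.014 and Ebp at 0.00012. Without single arrays Fdps ran from -0.016 to 0.014, Dhcr7 from -0.015 to 0.057, Nsdhl from -0.0054 to 0.0403, Pmvk from -0.043 to 0.018, Ebp from -0.036 to 0.032, Tmem97 from -0.025 to 0.0042, Scd1 from -0.028 to 0.031, Acaca from -0.12 to 0.00802 and Acly from -0.037 to 0.00016. None of these passed in any setting.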
